A study of Mus musculus with 15 samples.

Results

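The SLC25 genes encode the carriers that move metabolites, nucleotides, cofactors and ions across the inner mitochondrial membrane. They were followed here in differentiated MAP adipocytes, cells of an immortalized line of mouse adipocyte progenitors. Members were taken by symbol (Slc25a followed by a number) where at least 50 reads were counted over all 15 libraries. Of 47 such symbols among 24421 genes, 44 met the rule, and all 44 passed the filter on low counts that left 14421 genes for testing. Nearest the limit were Slc25a54 (193 reads) and Slc25a43 (426 reads) inside it, and Slc25a41 (45 reads), Slc25a48 (14 reads) and Slc25a31 (8 reads) outside it. The groups were cells given forskolin for 4 h (called FSK4h), for 1 day (called FSK1D) or for 3 days (called FSK3D), cells given rosiglitazone for 3 days (called Rosi3D), and cells given vehicle, with 3 libraries each. Forskolin switches on adenylyl cyclase and so raises cyclic AMP, and rosiglitazone activates the nuclear receptor PPARγ. Every group, vehicle included, had first been differentiated for 2 days with insulin, isobutylmethylxanthine (500 µM), dexamethasone (1 µM) and rosiglitazone (1 µM) and for another 2 days with insulin and rosiglitazone. Treatment began at day 7 to 8 and is described by the labels as a means of inducing browning, the gain of heat-producing features by fat cells. Neither the treatment doses nor the harvest time of the vehicle cells are stated in the sources used here. The cells are 1 line, and separate cultures are not named for the 3 libraries of a group. Every p-value therefore sets a difference between groups only against the scatter of these libraries, which may be technical scatter.

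Carriers of this family share a fold built from repeats of paired membrane helices, and most exchange 1 solute for another. Through them the matrix receives ADP, phosphate, acylcarnitines, amino acids, iron and cofactors, and the cytosol receives ATP, citrate and malate. In fat cells citrate export feeds fatty acid synthesis, acylcarnitine import feeds fatty acid oxidation, and the related uncoupling protein UCP1 makes heat in brown adipocytes. A few members work elsewhere: SLC25A17 sits in peroxisomes and SLC25A46 in the outer mitochondrial membrane.

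The members were spread over 18 chromosomes, and only 3 pairs lay within 20 kb of each other. By the gene limits of the GENCODE annotation, Slc25a29 and Slc25a47 were 162 bases apart on chromosome 12 and on opposite strands. Slc25a54 and Slc25a24 were 6461 bases apart on chromosome 3, and Slc25a43 and Slc25a5 were 18448 bases apart on chromosome X. The RefSeq promoter window of Slc25a47 lies farther from Slc25a29, at chr12:108850879-108851178. In RefSeq (GRCm38.p6), 34 of the 44 members had at least 1 promoter window, running from 250 bases before to 50 bases after a transcript start, which gave 44 windows. Both strands were searched for the cyclic AMP response element TGACGTCA, its shorter form TGACG (contained in TGACGTCA), the core GGTCANAGG of the PPAR element, the ERR element TNAAGGTCA and the NRF1 core GCGCATGC. TGACGTCA stood in 2 of the 44 windows (4.545%), against 1.79% of all 32851 windows. TGACG stood in 12 windows (27.27%), against 20.81% of all windows. GGTCANAGG was in 1 member window (Slc25a45), against 1.717% of all windows, GCGCATGC in 1 (Slc25a54), against 2.712%, and TNAAGGTCA in 0, against 1.282%. The windows of the 2 genes with TGACGTCA, and that of Slc25a34, the member with the largest increase, are printed 5′ to 3′ on the minus strand, with capitals marking TGACGTCA.
Slc25a25, chr2:32424017-32424316: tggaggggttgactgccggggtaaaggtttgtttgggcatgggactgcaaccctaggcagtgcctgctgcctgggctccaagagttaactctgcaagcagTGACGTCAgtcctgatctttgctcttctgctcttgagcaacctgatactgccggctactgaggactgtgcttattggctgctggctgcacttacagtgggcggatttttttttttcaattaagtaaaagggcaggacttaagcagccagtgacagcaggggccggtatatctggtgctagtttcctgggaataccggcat
Slc25a36, chr9:97110992-97111291: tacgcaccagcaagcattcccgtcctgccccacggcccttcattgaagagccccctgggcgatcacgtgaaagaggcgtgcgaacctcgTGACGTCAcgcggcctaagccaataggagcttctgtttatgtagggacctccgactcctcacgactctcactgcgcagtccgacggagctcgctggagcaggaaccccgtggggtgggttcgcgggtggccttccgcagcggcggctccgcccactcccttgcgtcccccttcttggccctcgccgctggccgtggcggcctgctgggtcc
Slc25a34, chr4:141623785-141624084: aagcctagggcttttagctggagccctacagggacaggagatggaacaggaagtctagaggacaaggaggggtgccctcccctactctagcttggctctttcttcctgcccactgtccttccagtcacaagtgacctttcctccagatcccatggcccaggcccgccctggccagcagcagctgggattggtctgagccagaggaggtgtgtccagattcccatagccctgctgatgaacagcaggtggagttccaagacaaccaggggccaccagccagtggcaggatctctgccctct
In the Slc25a25 window, 1 of 3 windows of that gene, the element began 150 bases before the start, and in the Slc25a36 window it began 161 bases before it. The Slc25a34 window held no match to any of the 5 motifs. A match describes letters only and is not a binding site.

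Libraries held 14056200 to 56282582 counts, and 0.292% to 0.453% of the counts fell on the family. Levels are given as CPM, read counts brought to a common library total that was scaled by the trimmed mean of M values (TMM), and levels of different genes were compared per kilobase of the deposited gene length. Over all groups the 5 highest members were the phosphate carrier Slc25a3 (455 CPM per kb), the ADP/ATP carriers Slc25a5 (368) and Slc25a4 (191), the glutathione carrier Slc25a39 (93.6) and the NAD carrier Slc25a51 (70.7). With the length of the longest annotated transcript, Slc25a5 (385 CPM per kb) came before Slc25a3 (170 CPM per kb). Slc25a10 then moved up to rank 3, and Slc25a51 moved down to rank 6. In vehicle the lowest member was Slc25a54 at 0.224 CPM per kb and the highest Slc25a3 at 381, a 1697-fold range. Rosi3D gave the highest mean of the 5 groups for 23 members, FSK4h for 11, vehicle for 6, FSK3D for 4 and FSK1D for 0. The same counts were not taken over all genes, so they are not read as a trait of the family. The median coefficient of variation within a group was 5.81% over members and groups.

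Summed over the 44 members, the level was 2942 ± 115 CPM in vehicle, 3600.4 ± 65.4 CPM after 4 h, 2942 ± 70.7 CPM after 1 day and 3679.9 ± 86.8 CPM after 3 days of forskolin (mean ± SD, n = 3 each). In such bulk libraries fewer cells of a type and less RNA per cell cannot be told apart. Rosi3D libraries summed to 4428 ± 23.8 CPM, above each of the other 12 libraries. These sums depend on the scaling, with TMM factors of 0.899 to 0.912 in FSK4h and 1.03 to 1.04 in vehicle. As an unscaled share of counts, the family took 0.293% to 0.312% in vehicle and 0.322% to 0.330% after 4 h. That share was 0.292% to 0.304% after 1 day and 0.376% to 0.382% after 3 days of forskolin, and 0.446% to 0.453% in Rosi3D. Slc25a3, Slc25a4 and Slc25a5, which together supply phosphate and ADP for ATP synthesis, made up 41.8% of the sum in vehicle, 43.9% after 4 h, 37.9% after 1 day and 33.6% after 3 days of forskolin, and 38.8% in Rosi3D. The FSK3D share (33.0% to 34.4%) lay below that of every other group.

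**Figure D1:**
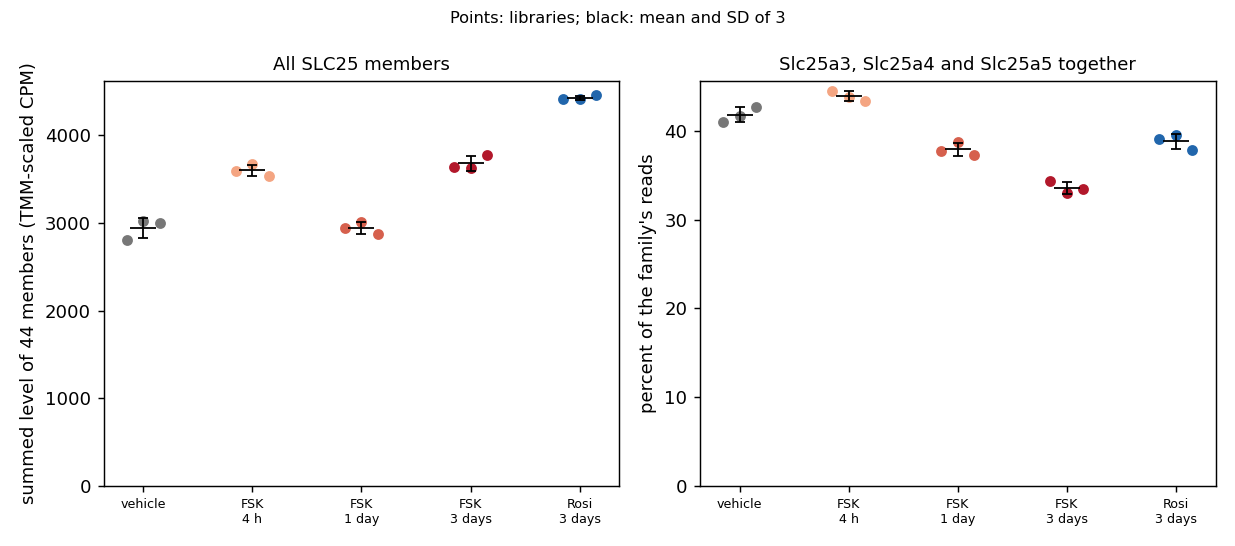
Left, summed level of the 44 members in each library (y axis, TMM-scaled CPM) by group (x axis). Right, percent of that sum held by Slc25a3, Slc25a4 and Slc25a5. Points are libraries, and black marks are the mean and SD of 3. The Rosi3D libraries lie highest on the left (4412 to 4455 CPM) and the FSK3D libraries lowest on the right (33.0% to 34.4%).

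Of the 10 adipocyte markers, 9 averaged at least 24.7 CPM in every group, and Lep averaged 0 to 0.489 CPM. The lipase gene Lpl gave the largest part, at 4866 CPM in vehicle, 5311 CPM in FSK4h, 3991 CPM in FSK1D, 8666 CPM in FSK3D and 7022 CPM in Rosi3D. The beta-3 adrenergic receptor gene Adrb3 averaged 124 CPM in vehicle, 28.8 CPM in FSK4h, 24.7 CPM in FSK1D, 66.6 CPM in FSK3D and 241 CPM in Rosi3D. The adipocyte markers did not all move alike. In FSK1D, Cidec (397 CPM, 278 CPM in vehicle) and Plin4 (1344 CPM, 1141 CPM in vehicle) averaged above vehicle, and the others below it. In Rosi3D, Pparg (189 CPM, 197 CPM in vehicle) and Lep averaged below vehicle, and the others above it. The sum over the 10 genes ran from 8850 to 10129 CPM in vehicle, 9898 to 11320 CPM in FSK4h, 7381 to 8021 CPM in FSK1D, 14785 to 14908 CPM in FSK3D and 17161 to 17848 CPM in Rosi3D, with Lep at 0 in FSK4h and FSK1D. The sum over 7 progenitor markers was 741 to 791 CPM in vehicle, 688 to 766 CPM in FSK4h, 940 to 986 CPM in FSK1D, 730 to 803 CPM in FSK3D and 382 to 424 CPM in Rosi3D, with Dpp4 at 0 in the 4 treated groups. The genes in this sum did not move together. Pdgfra averaged 209 CPM in vehicle, 373 CPM in FSK4h and 279 CPM in FSK1D. In the same groups Pdgfrb averaged 402, 154 and 209 CPM, and Ly6a 121, 137 and 431 CPM. The 4 smooth muscle markers summed to 253 to 262 CPM in vehicle, 186 to 203 CPM in FSK4h, 21.9 to 23.4 CPM in FSK1D, 56.5 to 65.8 CPM in FSK3D and 53.0 to 53.4 CPM in Rosi3D. Sums stayed at 1.83 to 5.15 CPM over 5 leukocyte markers (Ptprc and Adgre1 at 0 in FSK1D and FSK3D), 3.08 to 9.23 CPM over 4 endothelial markers (Cdh5 at 0 in FSK3D) and 0.0757 to 0.946 CPM over 4 skeletal muscle markers (Myod1 at 0 in all groups but FSK3D). The ribosomal RNA precursor Rn45s took 8.50% to 8.57% of counts in vehicle libraries, 8.53% to 8.87% at 4 h, 7.11% to 8.21% at 1 day and 4.15% to 5.79% at 3 days of forskolin, and 6.27% to 7.24% of counts in Rosi3D libraries. These sums and shares moved with the groups, and their part in the carriers' differences was not tested.

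After 4 h of forskolin, the calcium-regulated ATP-Mg/phosphate carrier Slc25a25, the NAD carrier Slc25a51, Slc25a34 and both mitoferrins were higher than in vehicle, while Slc25a27, Slc25a35, Slc25a45 and Slc25a10 were lower. Of the 44 members 17 were called higher (28.4% of all genes tested were) and 14 lower (30.7% of all genes), with 3 higher and 2 lower by at least 2-fold. The share of all genes past 2-fold was not taken for any comparison, so the 2-fold counts describe these members only. A call is an adjusted p under 0.05 in edgeR's quasi-likelihood test with Benjamini-Hochberg adjustment over the 14421 genes. The members' median log2 fold change was 0.055, and that of all genes -0.035. The split depended on the scaling: TMM factors were 0.899 to 0.912 in FSK4h and 1.03 to 1.04 in vehicle, and scaling by library size alone shifted the median gene by -0.19 and left 10 members higher and 19 lower. The 7 calls lost then were Slc25a5, Slc25a20, Slc25a30, Slc25a39, Slc25a42, Slc25a46 and Slc25a47, of which Slc25a39 (-0.0093) and Slc25a46 (-0.033) changed sign.

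After 1 day, Slc25a34, the NAD carrier Slc25a51 and mitoferrin 2 (Slc25a28) were still higher than in vehicle, and the ATP-Mg/phosphate carrier Slc25a23, the branched-chain amino acid carrier Slc25a44 and the aspartate/glutamate carrier Slc25a13 were lower. In all, 12 members were higher (19.5% of all genes) and 11 lower (20.7% of all genes) than in vehicle, and only Slc25a34 was past 2-fold. Their median log2 fold change was -0.032, and that of all genes -0.019. The count of lower members was 7 without vehicle library S2, 7 without FSK1D library S7 and 6 without FSK1D library S9.

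After 3 days of forskolin, Slc25a34, the coenzyme A carrier Slc25a42, Slc25a51 and the pyrimidine nucleotide carrier Slc25a33 were higher than in vehicle, and Slc25a43, Slc25a13 and Slc25a24 were lower. Over the family 22 members were higher (25.9% of all genes) and 7 lower (27.0% of all genes), with 3 higher and 1 lower by at least 2-fold. The members' median log2 fold change was 0.27, and that of all genes 0.0088. After 3 days of rosiglitazone, Slc25a34, the glutamate carrier Slc25a22, the acylcarnitine carrier Slc25a20 and Slc25a42 were higher than in vehicle, and Slc25a43, Slc25a24 and Slc25a13 were lower. Here 25 members were higher (28.6% of all genes) and 8 lower (32.0% of all genes). Of these, 7 were higher and 3 lower by at least 2-fold, for which no share of all genes was taken. The members' median was 0.39, and that of all genes -0.012. These comparisons share the vehicle libraries. Slc25a21 (oxoadipate carrier), Slc25a38 (glycine carrier) and Slc25a54 were called in none of them, which does not show that they did not differ.

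**Figure D2:**
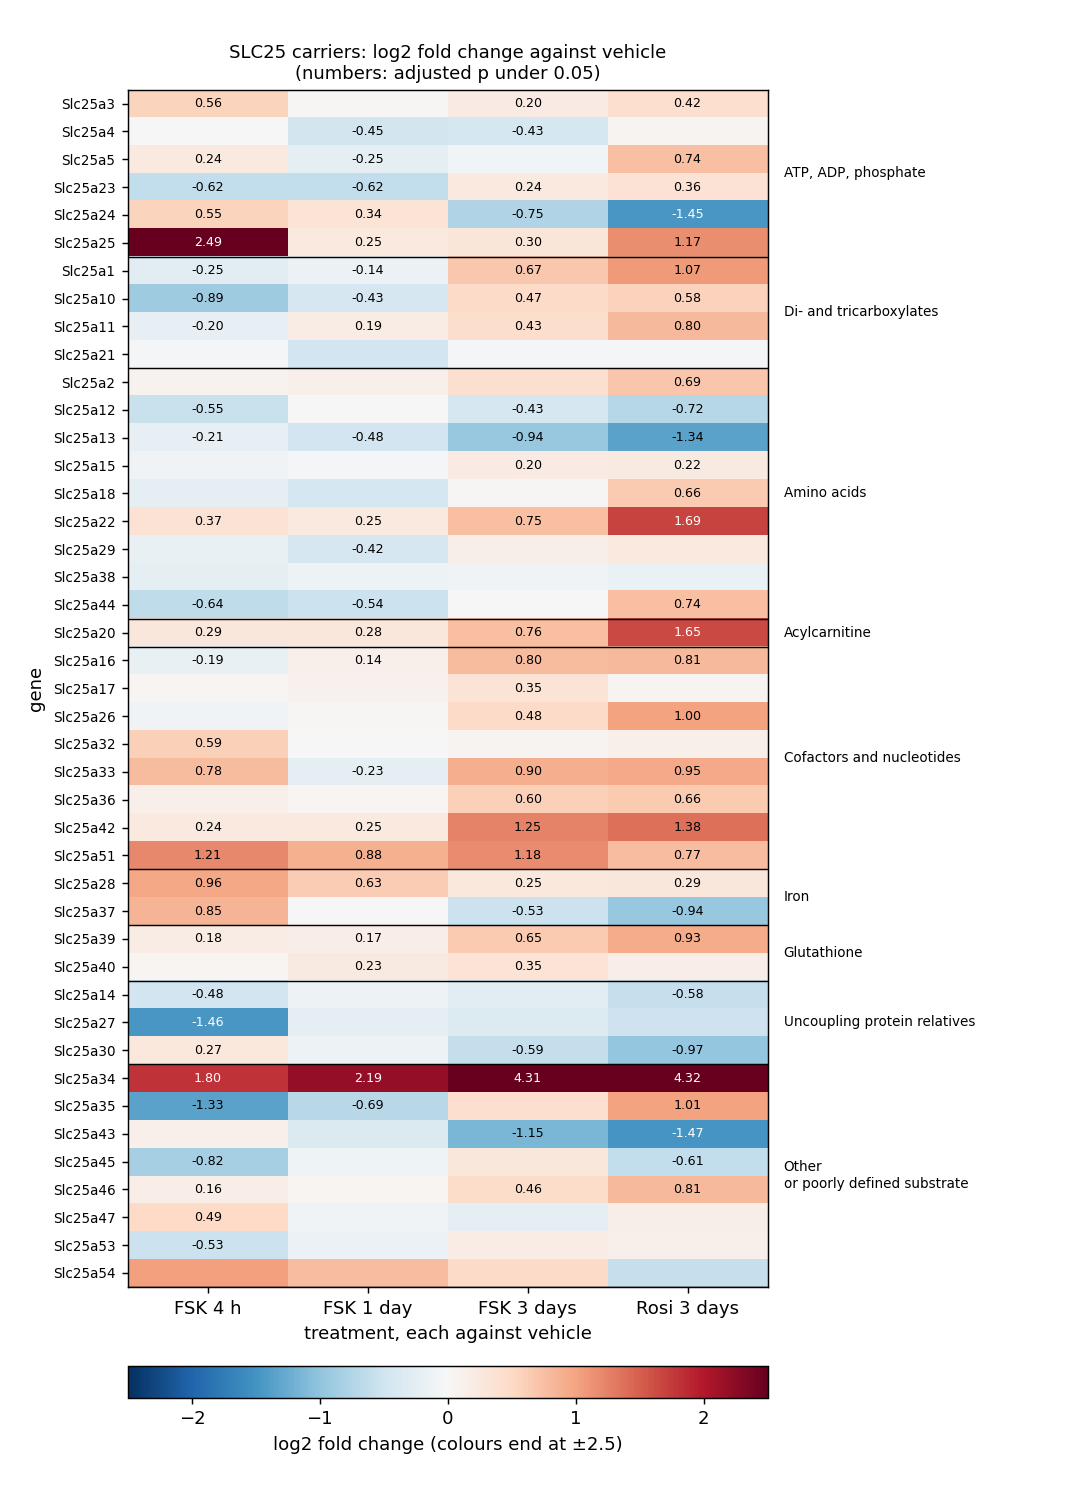
Log2 fold change of 43 members (rows, grouped by transported substrate) in the 4 treatments against vehicle (columns). Colours run from blue (lower) to red (higher) and end at ±2.5, and a number is printed where the adjusted p was under 0.05. Slc25a34 is red in all 4 columns (1.80, 2.19, 4.31 and 4.32), and Slc25a25 has its largest value at 4 h (2.49).

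The 6 adenine nucleotide and phosphate carriers moved in different ways, and Slc25a25 and Slc25a24 had the largest changes. At 4 h 4 of the 6 were higher (28.4% of all genes) and 1 lower (30.7% of all genes) than in vehicle. Slc25a25 (chr2:32414487-32451445 on GRCm38, minus strand) had 32.5, 34.5 and 31.4 CPM in vehicle, 185, 181 and 188 CPM after 4 h, 39.3, 37.0 and 40.9 CPM after 1 day and 40.7, 41.0 and 39.8 CPM after 3 days of forskolin. Rosi3D libraries had 75.6, 74.0 and 71.8 CPM. The 4 h libraries stood far above the rest, the Rosi3D libraries came next, and no library of the other treated groups overlapped with vehicle. The log2 fold change was 2.49 ± 0.054 at 4 h (± SE, adjusted p = 1.45e-28), 0.25 ± 0.056 at 1 day (adjusted p = 0.000351), 0.30 ± 0.056 at 3 days (adjusted p = 2.59e-05) and 1.17 ± 0.054 with rosiglitazone (adjusted p = 2.66e-19). Its exons share 379 bases, 8.94% of its length, with Naif1 on the other strand. Naif1 did not pass the test at 4 h (log2 fold change -0.024 ± 0.14, adjusted p = 0.897).

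Slc25a24 (chr3:109123149-109168457), also a calcium-regulated ATP-Mg/phosphate carrier, went up early and down late. It had 92.5, 88.2 and 95.4 CPM in vehicle, 134, 141 and 129 CPM after 4 h, 119, 105 and 124 CPM after 1 day and 56.4, 60.9 and 48.0 CPM after 3 days of forskolin, and 32.3, 34.1 and 34.6 CPM in Rosi3D. All libraries of the 2 early times lay above vehicle, and all libraries of both 3-day treatments below it. Its log2 fold change was 0.55 ± 0.065 at 4 h (adjusted p = 2.28e-08), 0.34 ± 0.065 at 1 day (adjusted p = 9.88e-05), -0.75 ± 0.069 at 3 days (adjusted p = 1.73e-10) and -1.45 ± 0.070 in Rosi3D (adjusted p = 4.03e-17). Slc25a23, the third of this kind, was lower at 4 h (-0.62 ± 0.092, adjusted p = 6.06e-07) and 1 day (-0.62 ± 0.093, adjusted p = 1.44e-06). At 3 days it was higher with forskolin (0.24 ± 0.090, adjusted p = 0.0274), a call lost without vehicle library S3 (adjusted p = 0.175) or FSK3D library S12 (adjusted p = 0.0641), and with rosiglitazone (0.36 ± 0.088, adjusted p = 0.000567).

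The phosphate carrier Slc25a3 (chr10:91116574-91124059) had 540.1, 589 and 597 CPM in vehicle, 870.0, 859 and 819 CPM after 4 h, 597, 607 and 566 CPM after 1 day and 668, 639.8 and 669.8 CPM after 3 days of forskolin, and 772, 795 and 737 CPM in Rosi3D. With TMM scaling it was highest at 4 h, and it overlapped with vehicle at 1 day. Over the alternatives tried, its log2 fold change went down to 0.37 at 4 h and to 0.39 in Rosi3D. Which of these 2 groups stood highest therefore depended on the processing. It rose at 4 h (0.56 ± 0.045, adjusted p = 8.52e-13), at 3 days (0.20 ± 0.045, adjusted p = 0.000413) and in Rosi3D (0.42 ± 0.045, adjusted p = 8.07e-10). Slc25a5 (chrX:36795651-36798807), the ADP/ATP carrier ANT2, had 389, 432 and 443 CPM in vehicle, 492, 517 and 488 CPM after 4 h, 346, 379 and 341 CPM after 1 day and 401, 398 and 414 CPM after 3 days of forskolin. Its Rosi3D libraries, at 705, 718 and 693 CPM, stood above all others. It rose in Rosi3D (0.74 ± 0.047, adjusted p = 1.70e-15) and at 4 h (0.24 ± 0.047, adjusted p = 4.25e-05), and fell at 1 day (-0.25 ± 0.048, adjusted p = 6.75e-05). Its 4 h call was lost with library size alone (0.050, adjusted p = 0.353). Slc25a4 (chr8:46206797-46211284), the ADP/ATP carrier ANT1 of heart and muscle, had 223, 239 and 237 CPM in vehicle, 238, 233 and 227 CPM after 4 h, 166, 181 and 164 CPM after 1 day and 179, 159 and 179 CPM after 3 days of forskolin, and 246, 234 and 256 CPM in Rosi3D. The 1-day and 3-day forskolin libraries lay below every other library. It fell at 1 day (-0.45 ± 0.050, adjusted p = 3.01e-09) and 3 days (-0.43 ± 0.050, adjusted p = 6.33e-09), and its difference did not pass the test at 4 h (adjusted p = 0.952) or in Rosi3D (adjusted p = 0.208).

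Of the 4 di- and tricarboxylate carriers, 3 were lower at 4 h (30.7% of all genes were) and higher at 3 days of forskolin (25.9% of all genes) and of rosiglitazone (28.6% of all genes). Slc25a10 (chr11:120491840-120499187), the dicarboxylate carrier that exchanges malate and succinate for phosphate, had 232, 264 and 234 CPM in vehicle, 127, 139.8 and 126 CPM after 4 h, 183, 189.6 and 170.5 CPM after 1 day and 314, 324 and 375 CPM after 3 days of forskolin, and 369, 368 and 353 CPM in Rosi3D. No treated library overlapped with vehicle, and those of 4 h were the lowest. The gene fell at 4 h (-0.89 ± 0.061, adjusted p = 1.37e-12) and 1 day (-0.43 ± 0.061, adjusted p = 1.83e-06) and rose at 3 days (0.47 ± 0.060, adjusted p = 2.02e-07) and in Rosi3D (0.58 ± 0.060, adjusted p = 3.60e-09). Slc25a1 (chr16:17925223-17928219), the citrate carrier, had 70.8, 76.5 and 69.3 CPM in vehicle, 60.4, 61.8 and 59.5 CPM after 4 h, 66.3, 68.5 and 61.7 CPM after 1 day and 110.4, 114 and 120.5 CPM after 3 days of forskolin, and 148, 157 and 150.5 CPM in Rosi3D. No treated library overlapped with vehicle. It fell at 4 h (-0.25 ± 0.053, adjusted p = 0.000106) and rose at 3 days (0.67 ± 0.052, adjusted p = 6.53e-13) and in Rosi3D (1.07 ± 0.052, adjusted p = 9.94e-19). Its lower value at 1 day (-0.14 ± 0.053, adjusted p = 0.0333) lost the call in 9 of the alternatives tried, among them DESeq2 (adjusted p = 0.0888) and leaving out vehicle library S1 or S2 or FSK1D library S7 or S9 (adjusted p = 0.0795 to 0.331). Slc25a11, the oxoglutarate/malate carrier of the malate-aspartate shuttle, averaged 95.3 ± 4.77 CPM in vehicle, 82.7 ± 2.97 CPM after 4 h, 109 ± 4.24 CPM after 1 day and 128 ± 6.54 CPM after 3 days of forskolin, and 166 ± 0.994 CPM in Rosi3D. It was lower at 4 h (adjusted p = 0.000752) and higher in the 3 other treatments.

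Among the 9 amino acid carriers, 5 were higher (28.6% of all genes) and 2 lower (32.0% of all genes) in Rosi3D than in vehicle. In FSK3D 2 were higher and 2 lower, which is close to the shares of all genes (25.9% and 27.0%). Slc25a22 (chr7:141429744-141437892), a glutamate carrier, had 25.8, 29.9 and 24.9 CPM in vehicle, 34.5, 38.0 and 31.8 CPM after 4 h, 30.1, 36.1 and 29.6 CPM after 1 day and 44.1, 46.2 and 45.1 CPM after 3 days of forskolin, and 84.9, 89.4 and 86.7 CPM in Rosi3D. The Rosi3D libraries stood above all others, the 3-day forskolin libraries came next, and the 1-day range overlapped with that of vehicle. It rose by 1.69 ± 0.075 (adjusted p = 1.55e-19) in Rosi3D, by 0.75 ± 0.077 (adjusted p = 5.56e-10) at 3 days and by 0.37 ± 0.077 (adjusted p = 0.000104) at 4 h. The call at 1 day (0.25 ± 0.078, adjusted p = 0.01) was lost without vehicle library S3 (adjusted p = 0.0501) or FSK1D library S8 (adjusted p = 0.0974). Slc25a13 (chr6:6041218-6217173), the aspartate/glutamate carrier citrin, had 21.4, 22.8 and 21.1 CPM in vehicle, 19.4, 18.0 and 19.0 CPM after 4 h, 16.6, 15.6 and 14.6 CPM after 1 day and 11.1, 12.4 and 10.8 CPM after 3 days of forskolin, and 8.44, 9.34 and 8.17 CPM in Rosi3D. Each later time lay below the earlier one, and Rosi3D lay lowest. It fell at 1 day (-0.48 ± 0.089, adjusted p = 3.66e-05), 3 days (-0.94 ± 0.093, adjusted p = 1.91e-10) and in Rosi3D (-1.34 ± 0.093, adjusted p = 1.51e-14), while the call at 4 h (-0.21 ± 0.087, adjusted p = 0.0374) was lost in 9 alternatives, among them without any 1 of the 6 libraries compared (adjusted p = 0.0527 to 0.174).

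Slc25a12, the second aspartate/glutamate carrier (aralar), averaged 41.4 ± 1.78 CPM in vehicle, 28.3 ± 0.415 CPM after 4 h, 41.2 ± 1.36 CPM after 1 day and 30.8 ± 0.503 CPM after 3 days of forskolin, and 25.3 ± 1.04 CPM in Rosi3D. It was lower at 4 h (adjusted p = 5.73e-09), 3 days (adjusted p = 1.27e-06) and in Rosi3D (adjusted p = 1.35e-11). Slc25a44, a carrier of branched-chain amino acids described in brown fat, averaged 137 ± 2.65 CPM in vehicle, 87.9 ± 3.24 CPM after 4 h, 94.1 ± 1.85 CPM after 1 day and 136 ± 3.98 CPM after 3 days of forskolin. In Rosi3D it averaged 229 ± 4.96 CPM and was higher (0.74 ± 0.044, adjusted p = 2.34e-16). It fell at 4 h (-0.64 ± 0.045, adjusted p = 2.80e-14) and 1 day (-0.54 ± 0.045, adjusted p = 4.35e-12), and its difference at 3 days of forskolin did not pass the test (adjusted p = 0.922). The ornithine carriers Slc25a15 and Slc25a2 were higher in Rosi3D (0.22 ± 0.071 and 0.69 ± 0.25), and so was the second glutamate carrier Slc25a18 (0.66 ± 0.21). Slc25a15 was also higher in FSK3D (0.20, adjusted p = 0.0175), a call lost without FSK3D library S12 (adjusted p = 0.135). The Slc25a2 call was lost without vehicle library S2 (adjusted p = 0.106) or Rosi3D library S15 (adjusted p = 0.0509). Slc25a29, a carrier of basic amino acids, was called against vehicle only at 1 day, where it was lower (-0.42 ± 0.16, adjusted p = 0.035), and that call was lost in 6 alternatives, among them without vehicle library S2 or S3 or FSK1D library S7 or S9 (adjusted p = 0.0877 to 0.235).

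Slc25a20 (chr9:108662088-108684641), which brings acylcarnitines into the matrix for oxidation, had 39.2, 42.9 and 40.5 CPM in vehicle, 52.4, 49.3 and 48.4 CPM after 4 h, 48.1, 49.3 and 51.5 CPM after 1 day and 66.9, 71.8 and 69.4 CPM after 3 days of forskolin, and 128, 118 and 138 CPM in Rosi3D. All treated libraries lay above vehicle, with FSK3D next to highest and Rosi3D highest. It rose by 1.65 ± 0.059 (adjusted p = 4.03e-22) in Rosi3D and by 0.76 ± 0.060 (adjusted p = 9.22e-13) at 3 days of forskolin. The smaller rises were 0.29 ± 0.060 (adjusted p = 8.69e-05) at 4 h and 0.28 ± 0.060 (adjusted p = 0.000274) at 1 day. The 4 h call was lost with library size alone (0.10, adjusted p = 0.148).

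Of the 9 carriers of cofactors and nucleotides, 8 were higher (25.9% of all genes) and 0 lower (27.0% of all genes) in FSK3D, with a median log2 fold change of 0.80. In Rosi3D 7 were higher (28.6% of all genes) and 0 lower (32.0% of all genes), with a median of 0.81. Slc25a51 (chr4:45395923-45408766), the mitochondrial NAD carrier, had 169, 170.2 and 177 CPM in vehicle, 386, 407 and 397 CPM after 4 h, 324, 316 and 312 CPM after 1 day and 386, 389.6 and 395 CPM after 3 days of forskolin, and 286, 288 and 303 CPM in Rosi3D. Every treated library lay above every vehicle library. It rose by 1.21 ± 0.042 (adjusted p = 1.08e-22) at 4 h, by 0.88 ± 0.042 (adjusted p = 1.47e-18) at 1 day, by 1.18 ± 0.042 (adjusted p = 1.34e-21) at 3 days and by 0.77 ± 0.042 (adjusted p = 2.61e-17) in Rosi3D. Slc25a42 (chr8:70184340-70212305), which exchanges coenzyme A for ADP, had 37.5, 47.0 and 40.2 CPM in vehicle, 46.9, 49.3 and 51.1 CPM after 4 h, 48.6, 53.8 and 45.6 CPM after 1 day and 94.1, 99.0 and 103 CPM after 3 days of forskolin, and 103, 107 and 114 CPM in Rosi3D. Both 3-day groups stood clear of all other libraries. It rose by 1.25 ± 0.069 (adjusted p = 7.54e-16) at 3 days and by 1.38 ± 0.069 (adjusted p = 1.72e-17) in Rosi3D. The smaller called rises were 0.24 at 4 h and 0.25 at 1 day, where the libraries overlapped with vehicle. The 4 h call was lost with library size alone (0.046, adjusted p = 0.5765).

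Slc25a33 (chr4:149744036-149774277), a pyrimidine nucleotide carrier, had 23.6, 25.2 and 26.4 CPM in vehicle, 41.5, 49.1 and 39.2 CPM after 4 h, 21.8, 22.0 and 20.3 CPM after 1 day and 46.4, 48.4 and 46.2 CPM after 3 days of forskolin, and 49.4, 46.0 and 49.4 CPM in Rosi3D. It was high at 4 h, below vehicle at 1 day and high again at 3 days. It rose at 4 h (0.78 ± 0.074, adjusted p = 3.69e-11), 3 days (0.90 ± 0.075, adjusted p = 2.52e-12) and in Rosi3D (0.95 ± 0.073, adjusted p = 2.49e-13). The fall at 1 day (-0.23 ± 0.077, adjusted p = 0.0157) lost its call without vehicle library S2 (adjusted p = 0.0603), vehicle library S3 (adjusted p = 0.0999) or FSK1D library S9 (adjusted p = 0.114).

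The related nucleotide carrier Slc25a36, whose window holds the printed TGACGTCA, did not pass the test at 4 h (0.12 ± 0.063, adjusted p = 0.102) and was higher at 3 days (0.60 ± 0.063, adjusted p = 6.97e-10) and in Rosi3D (0.66 ± 0.062, adjusted p = 2.87e-11). Slc25a16, a carrier linked to coenzyme A, was higher at 3 days of forskolin (0.80 ± 0.054, adjusted p = 2.10e-14) and in Rosi3D (0.81 ± 0.054, adjusted p = 4.33e-15), and lower at 4 h (-0.19 ± 0.055, adjusted p = 0.00312), a call lost without vehicle library S3 (adjusted p = 0.0512). Its higher value at 1 day (0.14 ± 0.054, adjusted p = 0.0456) lost the call with library size alone (adjusted p = 0.114) and without vehicle library S1 (adjusted p = 0.222) or FSK1D library S7 (adjusted p = 0.0981). Slc25a26, the carrier of S-adenosylmethionine, averaged 6.50 ± 0.228 CPM in FSK3D and 9.28 ± 0.440 CPM in Rosi3D, against 4.64 ± 0.469 CPM in vehicle, and was higher in both. Against vehicle, Slc25a32, which carries folate, was called only at 4 h, where it was higher (0.59 ± 0.076, adjusted p = 3.16e-08). The peroxisomal carrier Slc25a17 was called against vehicle only at 3 days of forskolin, where it was higher (0.35 ± 0.061, adjusted p = 1.09e-05).

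Both mitoferrins, which deliver iron for haem and iron-sulphur clusters, were higher at 4 h and then parted. Slc25a37 (chr14:69241848-69285112), mitoferrin 1, had 36.8, 35.0 and 36.5 CPM in vehicle, 61.2, 65.4 and 68.9 CPM after 4 h, 35.6, 32.1 and 39.3 CPM after 1 day and 26.1, 27.0 and 22.4 CPM after 3 days of forskolin, and 18.9, 17.4 and 19.9 CPM in Rosi3D. The 4 h libraries lay above all others, the 1-day libraries around vehicle, and both 3-day groups below it. It rose at 4 h (0.85 ± 0.074, adjusted p = 6.52e-12) and fell at 3 days (-0.53 ± 0.080, adjusted p = 8.44e-07) and in Rosi3D (-0.94 ± 0.080, adjusted p = 2.13e-12). Slc25a28, mitoferrin 2, averaged 24.6 ± 0.317 CPM in vehicle, 47.8 ± 1.55 CPM after 4 h, 37.9 ± 4.48 CPM after 1 day and 29.0 ± 3.62 CPM after 3 days of forskolin, and 30.1 ± 0.368 CPM in Rosi3D. It was higher in all 4 treatments, by 0.96 ± 0.079 at 4 h, and the call at 3 days of forskolin (0.25 ± 0.082, adjusted p = 0.0094) was lost without FSK3D library S12 (adjusted p = 0.0734).

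Slc25a39 (chr11:102402985-102407946), the glutathione carrier, had 114, 119.7 and 114 CPM in vehicle, 131, 133 and 131 CPM after 4 h, 124, 139.7 and 128 CPM after 1 day and 172, 170.0 and 200.3 CPM after 3 days of forskolin, and 217, 215 and 231 CPM in Rosi3D. Every treated library lay above vehicle, and Rosi3D highest. It rose by 0.65 ± 0.054 (adjusted p = 4.86e-12) at 3 days and by 0.93 ± 0.054 (adjusted p = 1.57e-16) in Rosi3D. At 4 h the rise was 0.18 ± 0.054 (adjusted p = 0.00419), which had the other sign with library size alone, and at 1 day 0.17 ± 0.054 (adjusted p = 0.011), a call lost without FSK1D library S8 (adjusted p = 0.063). Its relative Slc25a40 averaged 26.9 ± 1.59 CPM in vehicle, 27.9 ± 1.63 CPM after 4 h, 31.5 ± 2.70 CPM after 1 day and 34.4 ± 2.75 CPM after 3 days of forskolin, and was higher at 3 days (0.35 ± 0.078, adjusted p = 0.000268). Its difference in Rosi3D did not pass the test (adjusted p = 0.0574).

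The 3 relatives of the uncoupling proteins fell or did not pass the test in most treatments. Slc25a27 (chr17:43641891-43667214), also called UCP4, had 3.27, 2.00 and 2.35 CPM in vehicle, 0.467, 1.21 and 1.19 CPM after 4 h, 2.62, 1.67 and 2.26 CPM after 1 day and 1.92, 0.959 and 2.83 CPM after 3 days of forskolin, and 1.43, 2.51 and 1.56 CPM in Rosi3D. The 4 h libraries lay below vehicle, and the other groups overlapped with it. The fall at 4 h (-1.46 ± 0.35, adjusted p = 0.000669) rests on a gene of low count. Slc25a30 was higher at 4 h (0.27 ± 0.094, adjusted p = 0.0131), a call lost with library size alone (adjusted p = 0.483), and lower at 3 days (-0.59 ± 0.10, adjusted p = 7.22e-06) and in Rosi3D (-0.97 ± 0.10, adjusted p = 2.57e-10). Slc25a14, also called UCP5, was lower at 4 h (-0.48 ± 0.15, adjusted p = 0.00687) and in Rosi3D (-0.58 ± 0.15, adjusted p = 0.00115), and the 4 h call was lost without FSK4h library S6 (adjusted p = 0.0605).

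Among the members with other or poorly defined substrates, Slc25a34 (chr4:141618824-141623821) had the largest log2 fold change of the family at 1 and 3 days of forskolin and with rosiglitazone. It had 0.895, 1.64 and 1.39 CPM in vehicle, 3.71, 6.35 and 3.82 CPM after 4 h, 5.71, 6.51 and 5.67 CPM after 1 day and 23.9, 25.2 and 28.3 CPM after 3 days of forskolin, and 24.7, 25.1 and 28.4 CPM in Rosi3D. The 3-day libraries of both treatments ran between 23.9 and 28.4 CPM, and no treated library overlapped with vehicle. It rose by 1.80 ± 0.21 (adjusted p = 2.44e-08) at 4 h, by 2.19 ± 0.20 (adjusted p = 6.94e-10) at 1 day, by 4.31 ± 0.18 (adjusted p = 3.35e-17) at 3 days and by 4.32 ± 0.18 (adjusted p = 8.01e-18) in Rosi3D. Per kilobase it stood at 9.61 CPM in FSK3D and 9.72 CPM in Rosi3D, against 0.489 CPM in vehicle, well under the phosphate carrier at 436, 508 and 381 CPM in the same groups. Slc25a35 (chr11:68968131-68974365), its close relative, had 3.70, 4.27 and 2.42 CPM in vehicle, 1.35, 1.94 and 0.901 CPM after 4 h, 2.18, 2.16 and 2.11 CPM after 1 day and 4.00, 6.58 and 3.91 CPM after 3 days of forskolin, and 7.27, 7.95 and 5.88 CPM in Rosi3D. It fell at 4 h (-1.33 ± 0.25, adjusted p = 2.89e-05) and rose in Rosi3D (1.01 ± 0.21, adjusted p = 9.22e-05). The call at 1 day (-0.69 ± 0.24, adjusted p = 0.0182) was lost without each of 4 libraries in turn, vehicle S1 (adjusted p = 0.0685) and S2 (adjusted p = 0.135) and FSK1D S7 (adjusted p = 0.0548) and S9 (adjusted p = 0.0581). Of its length, 63.0% is shared with Rangrf on the other strand, which did not pass the test in any treatment (adjusted p = 0.535 at 4 h and 0.782 in Rosi3D). On the other strand Rnf167 shares 189 bases, 10.2% of the length of Slc25a11. It moved the same way as that carrier at 4 h (-0.34 ± 0.077, adjusted p = 0.000282) and in Rosi3D (0.45 ± 0.074, adjusted p = 3.05e-06). At 1 day (-0.0098 ± 0.076, adjusted p = 0.938) and 3 days (-0.015 ± 0.077, adjusted p = 0.890) Rnf167 did not pass the test, while Slc25a11 was higher. Atp6v1e1 shares 32 bases, 2.34% of the length of Slc25a18, and was also higher in Rosi3D (0.52 ± 0.067, adjusted p = 7.84e-08). It was higher too at 4 h (0.20 ± 0.067, adjusted p = 0.013) and 3 days of forskolin (0.25 ± 0.068, adjusted p = 0.00246), where Slc25a18 was not called. The part of these shared bases in the carriers' values was not tested. In all, 14 members share exon bases with another annotated gene, 12 of them with a gene on the other strand, whose reads may not be told apart.

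Slc25a43 (chrX:36743659-36777202) was among the lowest members, at 1.30, 1.12 and 1.61 CPM in vehicle, 1.13, 1.70 and 1.62 CPM after 4 h, 1.49, 0.682 and 0.919 CPM after 1 day and 0.489, 0.548 and 0.732 CPM after 3 days of forskolin, and 0.581, 0.139 and 0.623 CPM in Rosi3D. Both 3-day groups lay below vehicle. It fell in Rosi3D (-1.47 ± 0.39, adjusted p = 0.00137) and at 3 days of forskolin (-1.15 ± 0.40, adjusted p = 0.0153), the second call being lost without vehicle library S3 (adjusted p = 0.0598) or FSK3D library S10 (adjusted p = 0.0638). Slc25a45 (chr19:5877808-5885878) had 7.22, 6.70 and 6.53 CPM in vehicle, 4.81, 3.48 and 3.13 CPM after 4 h, 6.59, 5.83 and 6.62 CPM after 1 day and 9.34, 6.65 and 8.72 CPM after 3 days of forskolin, and 4.63, 4.51 and 4.24 CPM in Rosi3D. It fell at 4 h (-0.82 ± 0.16, adjusted p = 2.95e-05) and in Rosi3D (-0.61 ± 0.15, adjusted p = 0.000861), and at 3 days of forskolin its mean was above vehicle without passing the test (adjusted p = 0.101). Slc25a46, an outer membrane protein that acts in mitochondrial shape, was higher at 3 days (0.46 ± 0.059, adjusted p = 4.71e-08) and in Rosi3D (0.81 ± 0.058, adjusted p = 2.95e-14). Against vehicle, Slc25a47 was called only at 4 h, where it was higher (0.49 ± 0.18, adjusted p = 0.0184), and Slc25a53 only at 4 h, where it was lower (-0.53 ± 0.22, adjusted p = 0.0377). The first call was lost with library size alone (adjusted p = 0.147) and without vehicle library S1 (adjusted p = 0.142). The second was lost in 6 alternatives, among them without vehicle library S2 or S3 or FSK4h library S4 or S5 (adjusted p = 0.0517 to 0.302).

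**Figure D3:**
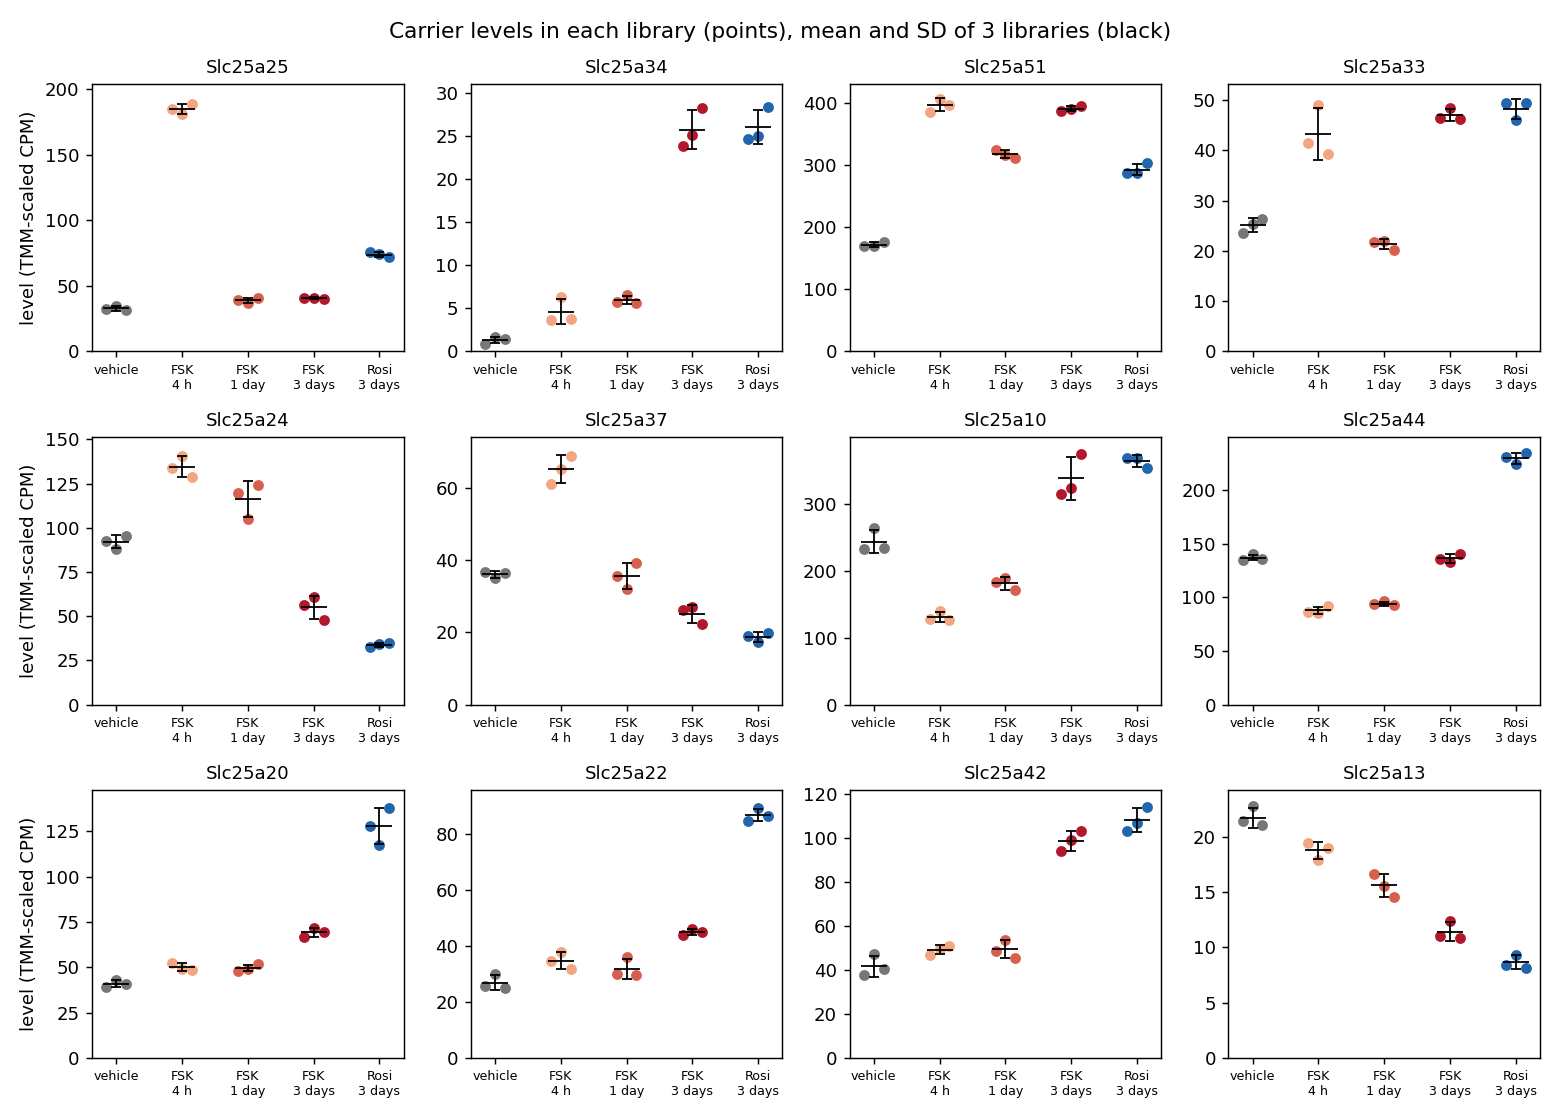
Level of 12 members in each library (y axis, TMM-scaled CPM from 0) by group (x axis). Points are libraries, and black marks are the mean and SD of 3. Slc25a25 peaks at 4 h (185 CPM on average), Slc25a34 at 3 days of either treatment (25.8 and 26.1 CPM), and Slc25a13 falls step by step to 8.65 CPM in Rosi3D.

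Set directly against each other at 3 days, forskolin gave higher levels than rosiglitazone for 8 members (22.5% of all genes) and lower levels for 14 (20.7% of all genes), and 22 were not called. None of the 44 was called with a 2-fold difference, for which no share of all genes was taken. The median was -0.060, against 0.0030 for all genes. Among the members lower with forskolin, the largest called differences were those of Slc25a22, Slc25a20, Slc25a25 and Slc25a5. Slc25a22 averaged 45.1 ± 1.05 CPM in FSK3D and 87.0 ± 2.26 CPM in Rosi3D (-0.95 ± 0.073, adjusted p = 8.20e-13). Slc25a20 averaged 69.3 ± 2.45 CPM in FSK3D and 128 ± 10.1 CPM in Rosi3D (-0.89 ± 0.058, adjusted p = 7.63e-15). Slc25a25 averaged 40.5 ± 0.650 CPM in FSK3D and 73.8 ± 1.90 CPM in Rosi3D (-0.87 ± 0.054, adjusted p = 2.58e-15). Slc25a5 averaged 404 ± 8.86 CPM in FSK3D and 705 ± 12.2 CPM in Rosi3D (-0.80 ± 0.048, adjusted p = 6.88e-16). Higher with forskolin were Slc25a45 (0.90 ± 0.15, adjusted p = 1.04e-05), Slc25a24 (0.70 ± 0.072, adjusted p = 2.37e-09), Slc25a51 (0.42 ± 0.041, adjusted p = 2.28e-10), Slc25a37 (0.41 ± 0.083, adjusted p = 0.000111), Slc25a13 (0.40 ± 0.10, adjusted p = 0.00136), Slc25a30, Slc25a12 and Slc25a17. Of these 8, Slc25a24, Slc25a37, Slc25a13, Slc25a30 and Slc25a12 were below vehicle in both treatments and less so with forskolin. Slc25a34 showed a difference of -0.011 ± 0.13 (adjusted p = 0.955), a miss that does not show equal levels. For Slc25a35, lower in FSK3D than in Rosi3D (-0.59 ± 0.21, adjusted p = 0.0228), the call was lost with DESeq2 (adjusted p = 0.051) and without FSK3D library S10 (adjusted p = 0.119) or S12 (adjusted p = 0.126), or Rosi3D library S13 (adjusted p = 0.0742) or S14 (adjusted p = 0.0825). Rosiglitazone had also been in the medium of both groups during differentiation.

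**Figure D4:**
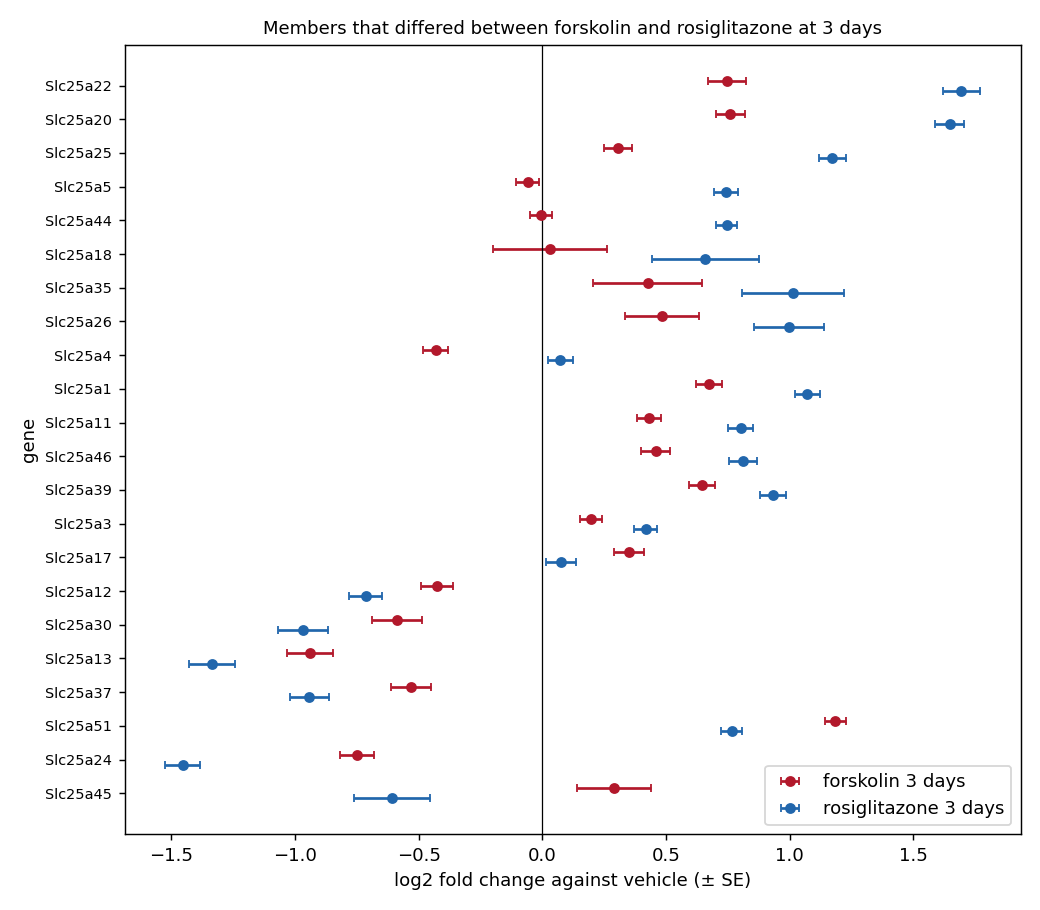
Log2 fold change against vehicle (x axis, ± SE) of the 22 members called between FSK3D and Rosi3D (y axis), with forskolin in red and rosiglitazone in blue. Slc25a22 (0.75 and 1.69) and Slc25a20 (0.76 and 1.65) stand at the top with the larger value in blue, and Slc25a45 at the bottom has the 2 treatments on opposite sides of 0 (0.29 and -0.61).

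Between forskolin times, 10 members were higher (28.4% of all genes) and 13 lower (28.9% of all genes) after 1 day than after 4 h. With library size alone, under which the median gene moved by 0.16, these counts were 20 and 9. After 3 days, 24 members were higher (25.2% of all genes) and 6 lower (25.8% of all genes) than after 1 day, and 22 were higher (35.0% of all genes) and 12 lower (33.5% of all genes) than after 4 h. With library size alone the last counts were 28 and 12. The members' median was -0.012 for 1 day against 4 h, 0.28 for 3 days against 1 day and 0.30 for 3 days against 4 h, and those of all genes were 0.011, 0.017 and 0.026. Slc25a25 was lower after 1 day (-2.24 ± 0.053, adjusted p = 9.73e-27) and 3 days (-2.19 ± 0.054, adjusted p = 9.38e-27) than after 4 h. Slc25a34 was higher after 3 days than after 1 day (2.11 ± 0.15, adjusted p = 1.39e-12), and its smaller step between 4 h and 1 day (0.39 ± 0.17, adjusted p = 0.0464) lost the call in 7 alternatives, among them without FSK4h library S4 or S6 or any 1 FSK1D library (adjusted p = 0.0577 to 0.247). For 11 of the 44 members (25.0%) the calls against vehicle had opposite directions at 2 forskolin times and the difference between these times was called as well, against 20.5% of all genes tested. The 10 described here were Slc25a1, Slc25a10 and Slc25a23, which were lower at 4 h and 1 day and higher at 3 days, Slc25a11 and Slc25a16, which were lower at 4 h only, Slc25a24, Slc25a30 and Slc25a37, which were higher early and lower at 3 days, and Slc25a5 and Slc25a33, which were higher at 4 h and lower at 1 day. Among these 10 the smallest difference in size was 0.33 ± 0.055 for Slc25a16 (1 day against 4 h), and the largest was -1.38 ± 0.078 for Slc25a37 (3 days against 4 h). For 5 of the 10, Slc25a1, Slc25a10, Slc25a11, Slc25a24 and Slc25a37, at least 1 such pair of opposite calls held in every alternative tried.

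Ratios within pairs of related carriers, taken per kilobase, moved with the groups too. Slc25a5 over Slc25a4 (ANT2 over ANT1) was 1.54 ± 0.0543 in vehicle, 1.83 ± 0.0658 after 4 h, 1.78 ± 0.00869 after 1 day and 2.01 ± 0.115 after 3 days of forskolin, and 2.46 ± 0.154 in Rosi3D. Slc25a24 over Slc25a23 was 4.64 ± 0.771 in vehicle, 10.3 ± 0.472 after 4 h, 8.89 ± 1.19 after 1 day and 2.33 ± 0.295 after 3 days, and 1.31 ± 0.118 in Rosi3D. In both pairs no treated library overlapped with vehicle. Slc25a12 over Slc25a13 (aralar over citrin) was 2.03 ± 0.160 in vehicle, 1.61 ± 0.0633 after 4 h, 2.83 ± 0.277 after 1 day and 2.89 ± 0.193 after 3 days of forskolin, and 3.13 ± 0.218 in Rosi3D. Slc25a37 over Slc25a28 was 0.541 ± 0.0186 in vehicle and overlapped with it at 4 h (0.504 ± 0.0461), but lay below it at 1 day (0.353 ± 0.0796), 3 days (0.325 ± 0.0700) and in Rosi3D (0.230 ± 0.0183). With 3 libraries a group, an exact two-sided permutation test of a ratio cannot go below p = 0.1, so none is given.

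**Figure D5:**
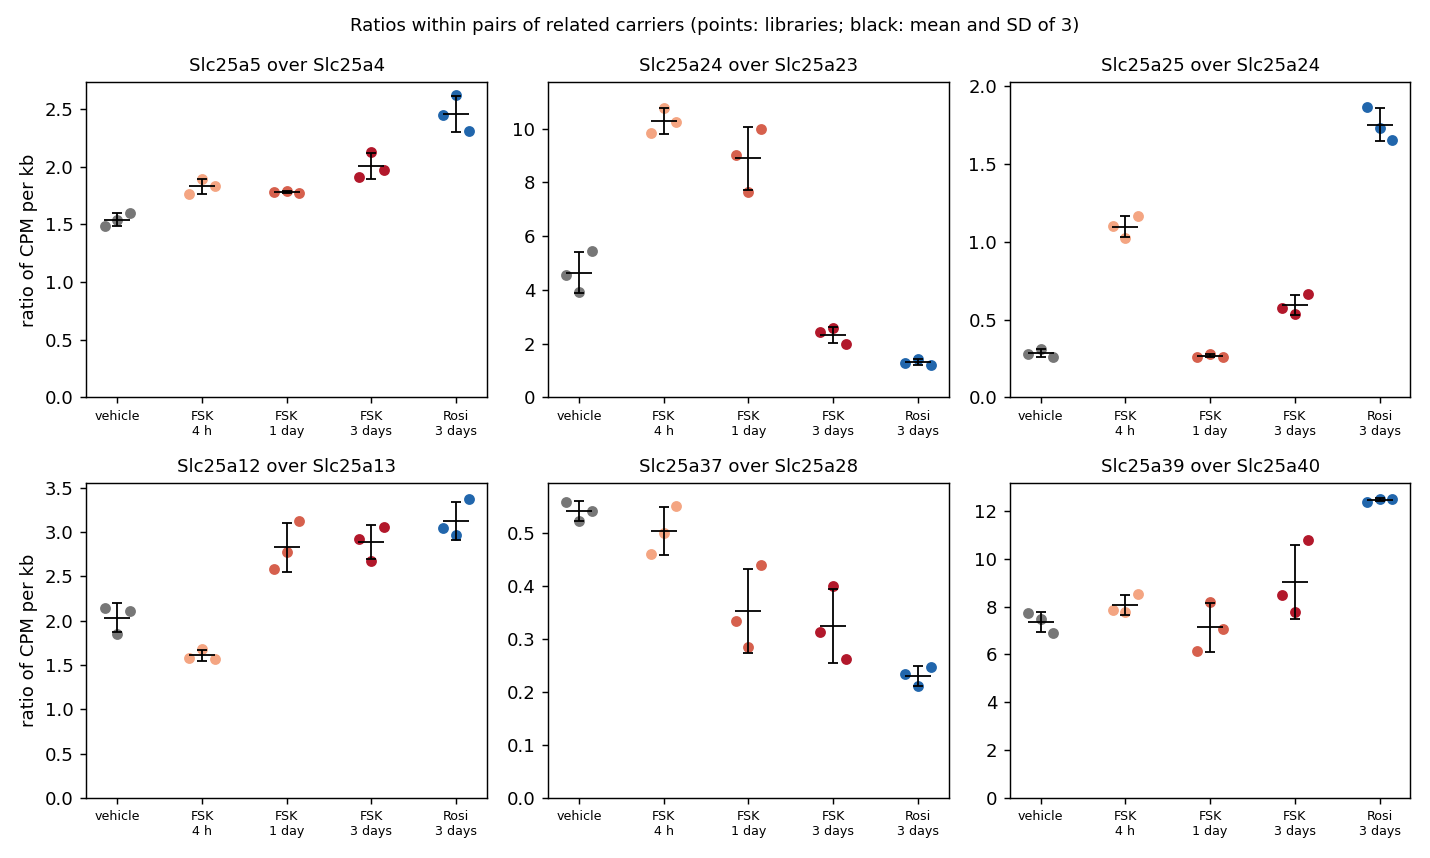
Ratio of levels per kilobase (y axis) within 6 pairs of related carriers in each library, by group (x axis). Points are libraries, and black marks are the mean and SD of 3. Slc25a24 over Slc25a23 is highest at 4 h (10.3) and lowest in Rosi3D (1.31), and Slc25a39 over Slc25a40 is highest in Rosi3D (12.5).

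Genes that work next to these carriers were read from lists chosen by pathway. Of all genes tested, 25.9% were higher and 27.0% lower in FSK3D, 28.6% higher and 32.0% lower in Rosi3D, and 28.4% higher and 30.7% lower at 4 h, and the counts of each list stand beside these shares. Of 9 carriers outside the symbol rule, 7 were higher and 2 lower in FSK3D and likewise in Rosi3D. Mpc1 and Mpc2, the subunits of the mitochondrial pyruvate carrier, averaged 60.0 ± 3.12 and 109 ± 8.86 CPM in FSK3D and 73.2 ± 7.06 and 144 ± 11.1 CPM in Rosi3D, against 24.2 ± 2.98 and 54.8 ± 5.93 CPM in vehicle. Ucp1 averaged 0.0753 ± 0.0829 CPM in vehicle, 8.42 ± 0.648 CPM after 4 h, 1.15 ± 0.0834 CPM after 1 day and 5.25 ± 0.939 CPM after 3 days of forskolin, and 0.827 ± 0.313 CPM in Rosi3D, and was higher in each (adjusted p = 8.70e-18 at 4 h). All 3 outer membrane channels (Vdac1 to Vdac3) were higher in Rosi3D and at 4 h, and 2 in FSK3D.

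Among 12 enzymes of the malate-aspartate, citrate and glycerol phosphate shuttles, 9 were higher and 3 lower in FSK3D, and 10 higher and 1 lower in Rosi3D. Got1, the cytosolic aspartate aminotransferase, averaged 198 ± 12.1 CPM after 4 h, against 42.0 ± 1.02 CPM in vehicle (2.24 ± 0.062, adjusted p = 2.21e-25), at a time when 4 of the 12 were higher and 3 lower. The mitochondrial Got2 was lower in FSK3D (-0.64 ± 0.062, adjusted p = 1.47e-10) and Rosi3D (-0.49 ± 0.061, adjusted p = 1.39e-08), as were both aspartate/glutamate carriers. Around Slc25a20, all 5 genes of the carnitine shuttle were higher in Rosi3D, and 3 in FSK3D. Cpt2 averaged 184 ± 12.6 CPM in FSK3D and 225 ± 2.89 CPM in Rosi3D, against 90.4 ± 5.14 CPM in vehicle. Around Slc25a44, all 7 genes listed for branched-chain amino acid oxidation and its control were higher in FSK3D and in Rosi3D, with medians of 0.92 and 1.31. They were Bcat2, Bckdha, Bckdhb, Dbt, Dld, Bckdk and Ppm1k. Slc25a44 itself was called higher in Rosi3D but not in FSK3D. Bcat2, the mitochondrial aminotransferase, averaged 84.3 ± 4.58 CPM in FSK3D and 106 ± 6.22 CPM in Rosi3D, against 33.8 ± 4.61 CPM in vehicle.

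Of 8 genes of iron-sulphur and haem synthesis found in the table, 5 were higher and 1 lower in FSK3D, and 5 higher and 0 lower in Rosi3D. Alas1, the first enzyme of haem synthesis, was higher at 4 h (0.70 ± 0.051, adjusted p = 6.76e-14), where it was the only 1 of the 8 called higher and 4 were lower. Of 6 glutathione genes, 1 was higher and 1 lower in FSK3D, and 4 higher and 1 lower in Rosi3D, and Gclc, which makes the rate-limiting enzyme subunit, was 1 of 3 higher at 4 h (1.39 ± 0.064, adjusted p = 2.76e-19), with 1 lower. Of 9 enzymes of coenzyme A, thiamine, folate and S-adenosylmethionine metabolism, 7 were higher and 2 lower in FSK3D, and 6 higher and 1 lower in Rosi3D. Pank1 and Coasy, which make coenzyme A, were higher in both 3-day treatments (0.46 ± 0.078 and 0.73 ± 0.074 in FSK3D), and Mthfd1l and Mthfd2 of the folate pathway were higher at 4 h (1.59 ± 0.059 and 1.04 ± 0.051), where 4 of the 9 were higher and 4 lower.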

How the data were processed

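RNA was measured by rRNA-depleted RNA-seq in 15 libraries of differentiated MAP adipocytes, 3 in each of 5 groups. The authors deposited 1 table of raw read counts per gene with a gene length column, and per the file headers the values are whole counts of 24421 genes. Per the submitters' processing notes, fastp, STAR, featureCounts and the GRCm38 (mm10) build were used. Their versions, the annotation, and the handling of strand, read pairs and multi-mapped reads are not stated in the sources used here, so reads of overlapping genes on opposite strands may not be separated. A count of 2 was held by more genes than a count of 1 (721 to 907 and 407 to 539 genes per library), for which halved counts were tried. Columns carry a group name and a running number (S1 to S15), by which they were mapped to groups.

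Libraries held 14056200 to 56282582 counts, which sets the counting error of low members. Pairs of libraries of 1 group differed beyond sampling noise (chi-square per degree of freedom 3.12 to 11.2), so none was counted as a repeat deposit. The common biological coefficient of variation was 5.97%. All genes were fitted together with edgeR 4.0.16 in R 4.3.3 (filterByExpr, TMM, robust quasi-likelihood fit, 10 residual degrees of freedom), and p-values were adjusted over 14421 genes by the Benjamini-Hochberg method and called under 0.05. The procedure was tested on simulated data. Alternatives were library size alone, RLE size factors, no filter on low counts, counts divided by 2, DESeq2 1.42.0, only the 2 groups compared, and leaving out each library in turn. Gene positions are from GENCODE vM21 (GRCm38) and promoter sequences from RefSeq (GRCm38.p6).

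The members, gene lists and comparisons were chosen with earlier results of these data known. 1 member counts in the totals but is not reported here. The others are named, and values in every library are given for members called with a 2-fold difference in any of the 8 comparisons and for the 5 highest per kilobase.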

Additional observations from a re-analysis of the deposited data

Results flagged for a closer look

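Results are listed here where the effect of 1 treatment against vehicle differed from that of another by a direct test of the 2 treatments (edgeR's quasi-likelihood test with Benjamini-Hochberg adjustment). This held for 23 of the 44 members (52.3%, against 57.3% of all genes tested) between 1 day and 4 h of forskolin and for 30 (68.2%, against 51.0%) between 3 days and 1 day. It held for 34 (77.3%, against 68.5% of all genes) between 3 days and 4 h, and for 22 (50%, against 43.1%) between 3 days of forskolin and 3 days of rosiglitazone.

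Within these, 11 members (25.0%) were called in opposite directions against vehicle at 2 forskolin times, against 20.5% of all genes, and 10 are described here. Between 1 day and 4 h they were Slc25a5 (log2 difference -0.49), Slc25a11 (0.40), Slc25a16 (0.33) and Slc25a33 (-1.02). Between 3 days and 1 day they were Slc25a1 (0.81), Slc25a10 (0.90), Slc25a23 (0.85), Slc25a24 (-1.09) and Slc25a33 (1.14). Between 3 days and 4 h they were Slc25a1 (0.93), Slc25a10 (1.37), Slc25a11 (0.63), Slc25a16 (0.99), Slc25a23 (0.85), Slc25a24 (-1.30), Slc25a30 (-0.86) and Slc25a37 (-1.38).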

How the results depend on the processing

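Of 225 called differences of single members over the 8 comparisons, 38 lost the call under at least 1 alternative. Library size alone ended 12 calls, and 2 of these also changed sign, both at 4 h: Slc25a39 stood at -0.0093 and Slc25a46 at -0.033 on the log2 scale. With it, 10 members were higher at 4 h than in vehicle and 20 were higher at 1 day than at 4 h, in place of 17 and 10. RLE size factors ended 2 calls, no filter on low counts 3, counts divided by 2 ended 1, DESeq2 9 and a fit of only the 2 groups compared 5. Leaving out each library in turn gave 1350 pairs of a call and a left-out library. The call was lost in 80 of these pairs, where the same call can count more than once. The count of members lower at 1 day than in vehicle ran from 6 to 11. The other 15 counts stayed within 1.5 times of their value in every such run. Some alternatives use fewer libraries or another set of genes, and the cause of these changes was not tested. No paired analysis was possible because the columns carry a running number and not the replicate numbers of the labels. Depth limits the low members, such as Slc25a27, Slc25a43 and Slc25a54, whose levels rest on few reads.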
